A study of Mus musculus with 13 samples.

Results

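The genes described here encode enzymes that build the ceramides of the epithelial barrier, together with 2 epidermal lipoxygenases. They are Sptlc1, Sptlc2, Sptlc3, Cers3, Cers4, Degs1, Degs2, Ugcg, Alox12b and Aloxe3, chosen by symbol as 10 of the 19934 genes that the array read with a probe set of a single gene. Each was read by 1 such probe set, and all 10 were among the 15875 genes that passed a filter on low values. The log2 intensity of every member was above the filter's value of 5 on all 13 arrays. The members were chosen with earlier results of these data known, so counts of members beside the share of all genes are descriptions.

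Mouse epithelium freed with dispase from the underlying tissue was profiled on an Affymetrix gene array, 1 array per sample, with all animals on a mixed C57Bl/6 and 129 background. The flox/flox animals carried L2-Cre and p120 flox/flox, floxed alleles of Ctnnd1, the gene of p120-catenin, which holds cadherins at the cell surface. They gave 4 esophagi (animals 193, 307, 313 and 335) and 3 forestomach masses (animals 412, 426 and 510). Control animals carried L2-Cre with p120 +/+, and the same 3 animals (214, 216 and 217) gave control forestomach and control esophagus. Thus Cre was present in every group. The L2 promoter is known to be active in squamous epithelium of the upper digestive tract, so deletion is directed to that lineage, and the labels give no recombined share. Since all forestomach samples of the flox/flox genotype were masses, genotype and mass formation cannot be told apart in that tissue.

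Ceramides are made at the endoplasmic reticulum from serine and an acyl-CoA. Serine palmitoyltransferase takes the first step, ceramide synthases attach a second acyl chain, and desaturases finish the sphingoid base. In stratified epithelia that cornify, such as epidermis and rodent forestomach, ceramides with very long acyl chains are glucosylated, stored in lamellar granules and released between the cells of the outer layers. There the epidermal lipoxygenases oxidise the linoleate carried by the longest ceramides, a step needed for the lipid layer that is bound to the cornified envelope.

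Squamous epithelium markers were high on every array. The 8 markers, of which Krt13 was highest, had a mean log2 intensity between 12.05 and 12.57 on all 13 arrays. Other tissue was present in some samples. Glandular stomach markers averaged a log2 intensity of 11.83 in mass 426, against 5.32 to 5.90 on every other array, with 9 of the 10 listed markers on the array. Skeletal muscle markers (12 of 12 on the array) averaged 7.92 in flox/flox esophagus 307, 9.42 in flox/flox esophagus 335 and 8.15 in control esophagus 214, against 5.72 to 6.14 on the other arrays. The same 3 esophagi had fibroblast marker means of 9.54 (307), 10.09 (335) and 10.89 (control 214), against 6.63 to 6.84 in the other esophagi. Ctnnd1 itself fell by 0.56 on the log2 scale in masses relative to control forestomach (SE 0.12, adjusted p = 0.0145), and its log2 difference in flox/flox relative to control esophagus was -0.29 (SE 0.11, adjusted p = 0.637). These adjusted p-values, like those below, came from limma with Benjamini-Hochberg adjustment over all 15875 genes, with a call at an adjusted p under 0.05.

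Sptlc2 and Sptlc3 encode alternative catalytic subunits of serine palmitoyltransferase, and their stretches of 250 bases before the annotated gene start are shown because these genes differed in opposite directions between the normal tissues. The sequences are from RefSeq (GRCm38.p6), run 5′ to 3′ on the gene's strand, and carry capitals at each match to the GC box GGGCGG or to CCAAT on either strand. Sptlc2 lies on the minus strand (chr12:87388356-87388605) and Sptlc3 on the plus strand (chr2:139493663-139493912).
Sptlc2: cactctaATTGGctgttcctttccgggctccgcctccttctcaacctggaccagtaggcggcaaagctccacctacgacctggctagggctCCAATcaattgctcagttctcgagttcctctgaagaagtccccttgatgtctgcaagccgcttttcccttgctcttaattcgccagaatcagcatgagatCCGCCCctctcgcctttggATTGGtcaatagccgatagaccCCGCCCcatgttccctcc
Sptlc3: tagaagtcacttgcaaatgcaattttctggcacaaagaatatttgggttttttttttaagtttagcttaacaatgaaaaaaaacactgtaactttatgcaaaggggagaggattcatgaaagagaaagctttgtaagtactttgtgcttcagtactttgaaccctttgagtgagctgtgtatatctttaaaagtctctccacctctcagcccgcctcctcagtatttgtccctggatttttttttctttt
The Sptlc2 stretch held 2 GC boxes and 3 CCAAT matches, none overlapping another, and 55.2% of its bases were G or C with 11 CpG steps. In the Sptlc3 stretch neither motif was found, and 35.6% of bases were G or C with 1 CpG step. TATAAA was absent from both stretches. Over 32851 promoter stretches of the same length, 32.7% held the GC box, 33.8% CCAAT and 12.4% TATAAA, each on either strand. Only 5.41% of these stretches had a lower G and C content than that of Sptlc3. A match describes letters in this window and says nothing of what binds there.

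**Figure D1:**
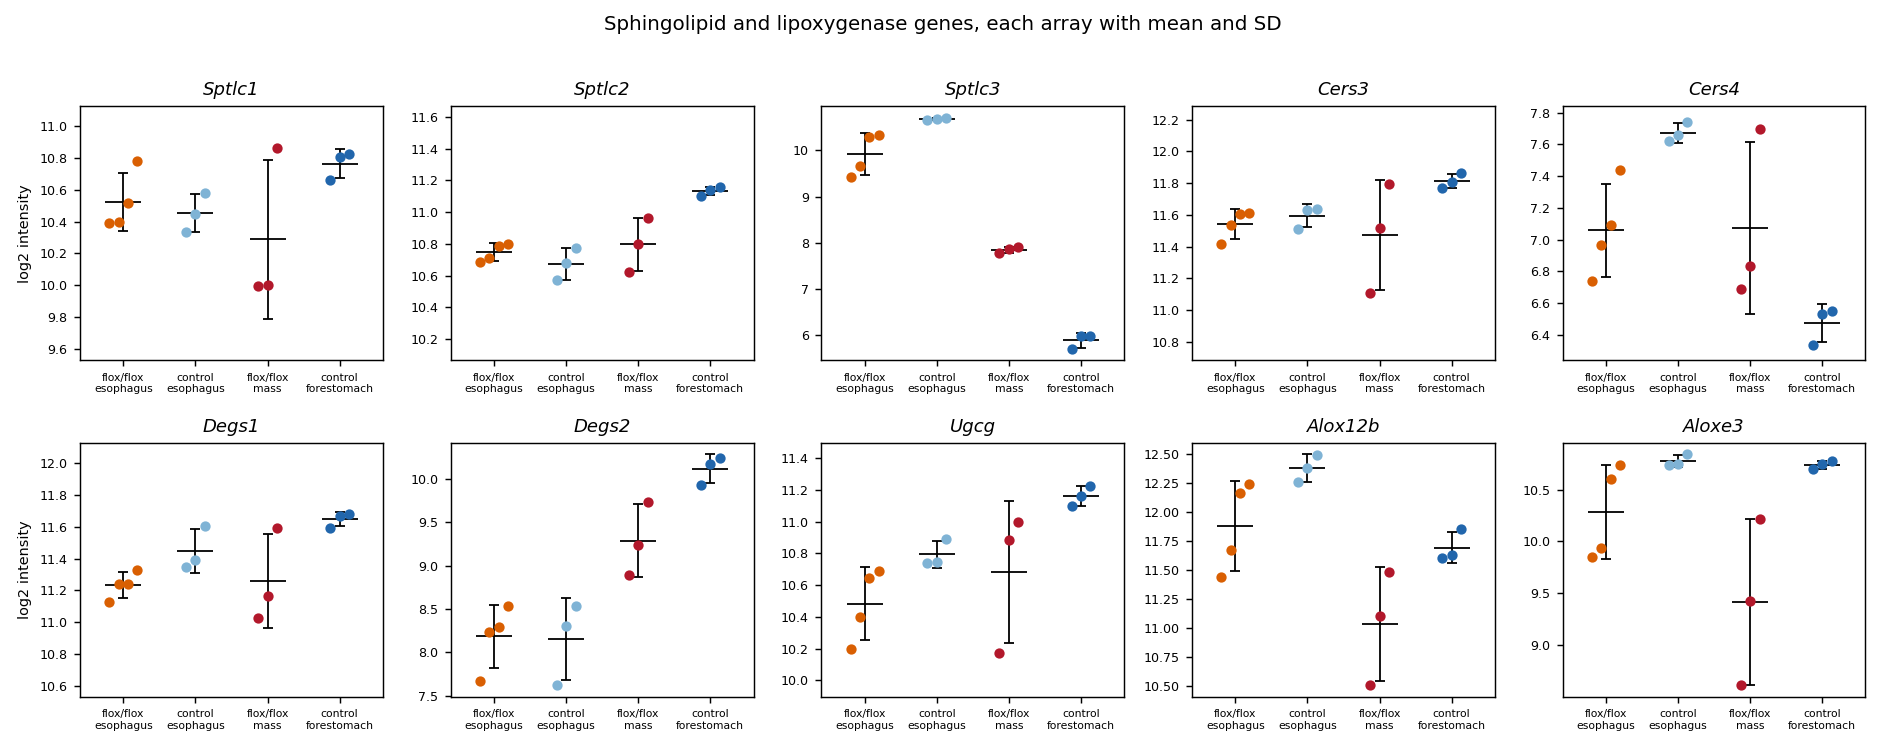
Log2 intensity of each of the 10 genes (y axis, a separate range for each panel) in flox/flox esophagus (n = 4), control esophagus (n = 3), flox/flox forestomach mass (n = 3) and control forestomach (n = 3). Points are arrays and bars are group means with SD. Sptlc3 separated the 4 groups, with means of 5.89 in control forestomach and 10.69 in control esophagus, while the 3 masses lay together at 7.77 to 7.91.

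Normal forestomach and esophagus, from the same 3 animals, differed in the catalytic subunits of serine palmitoyltransferase. By the group means Sptlc3 was 27.8-fold lower in control forestomach, where its signal may be background, than in control esophagus. Sptlc2 was 1.37-fold higher in control forestomach, and the shared subunit Sptlc1 did not pass the test. Degs2, which adds the hydroxyl group of phytoceramides as well as the desaturase's double bond, was 3.89-fold higher in control forestomach, and the ceramide synthase gene Cers4 was 2.30-fold lower. Of the 10 members 2 were called higher, against 3.51% of all genes tested, and 2 were called lower, against 3.16%. The comparison asks how these lipid genes differ between 2 squamous epithelia of p120 +/+ animals. Markers of epidermis and sebaceous gland (8 of 8 on the array) had a summed intensity of 27915 to 28298 in control forestomach. It was 389 to 530 in control esophagus. The keratin gene Krt1 led the forestomach sum, with a mean log2 intensity of 13.89. On every control forestomach array 5 of the 8 markers were not above the filter's value, so the list did not rise as a whole. Adipocyte markers (5 of 5 on the array) summed to 1015 to 1126 in control forestomach and 183 to 191 in control esophagus. Fabp4 led the forestomach sum, with a mean log2 intensity of 9.82. In each of these tissues 2 of the 5 markers were not above the filter's value on any array. What part any such cells had in the members' differences was not tested.

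The Sptlc3 log2 intensity was 5.99, 5.70 and 5.97 in control forestomachs of animals 214, 216 and 217, against 10.68, 10.71 and 10.67 in their esophagi. The groups were separated by more than 4 log2 units and each varied little, with means of 5.89 ± 0.16 in control forestomach and 10.69 ± 0.02 in control esophagus (SD, n = 3 each). On the linear scale control forestomach had intensities of 52.1 to 63.4, below the median of every array (65.3 to 72.4) and near the level of marker lists of absent tissue. The files used here hold no detection call, so the forestomach signal may be background, and fold values set against it are lower bounds if it is. The log2 difference was -4.80 (SE 0.21, adjusted p = 4.35e-07 by limma), which had the smallest p-value of all 15875 genes and the fifth lowest log2 difference. Sptlc2 had log2 intensities of 11.16, 11.10 and 11.14 in control forestomachs, against 10.57, 10.68 and 10.77 in the esophagi of the same animals in the same order. Its groups did not overlap, and the log2 difference was 0.46 (SE 0.10, adjusted p = 0.0168). That call was lost when control esophagus 214 was left out (adjusted p = 0.0740), when control esophagus 216 was (0.0557) and when any control forestomach array was left out, with an adjusted p between 0.0557 and 0.0659, while the difference stayed between 0.41 and 0.51. It was also lost without the esophagus arrays with skeletal muscle signal (log2 difference 0.41, adjusted p = 0.146). Without those arrays 496 genes in all were called between the normal tissues, against 1059 in the fit of all arrays. Sptlc1 encodes the subunit that both catalytic subunits need. It stood at 10.66 to 10.83 in control forestomach and 10.34 to 10.58 in control esophagus, a log2 difference of 0.31 with a 95% interval from -0.13 to 0.75 (adjusted p = 0.419).

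Among the ceramide synthases, Cers3, which uses ultra-long acyl chains and is needed for the skin barrier, differed little between the normal tissues. Its log2 intensity was 11.77 to 11.86 in control forestomach and 11.51 to 11.64 in control esophagus, a log2 difference of 0.22 with a 95% interval from -0.10 to 0.53 (adjusted p = 0.419). Cers4, which makes ceramides with shorter acyl chains than those of Cers3, had log2 intensities of 6.53, 6.55 and 6.34 in control forestomachs, against 7.62, 7.66 and 7.74 in esophagi of animals 214, 216 and 217. All 3 forestomach values were lower, by a log2 difference of -1.20 (SE 0.23, adjusted p = 0.00946).

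The desaturases differed in the same comparison. Degs2 had log2 intensities of 9.92 to 10.24 in control forestomach and 7.62, 8.31 and 8.53 in control esophagus, without overlap, and the log2 difference was 1.96 (SE 0.28, adjusted p = 0.00138). The lowest esophageal value, 7.62, was that of animal 214, whose esophagus also carried skeletal muscle signal, and the log2 difference without the esophagus arrays with such signal was 1.69 (adjusted p = 0.00515). Degs1, the general desaturase of ceramide synthesis, had a log2 difference of 0.20 with a 95% interval from -0.09 to 0.50 (adjusted p = 0.430). Its ranges, 11.60 to 11.68 in control forestomach and 11.35 to 11.61 in control esophagus, overlapped.

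Ugcg encodes the synthase that glucosylates ceramide. It had log2 intensities of 11.10 to 11.22 in control forestomach and 10.74 to 10.89 in control esophagus, a log2 difference of 0.37 (SE 0.19, adjusted p = 0.300), which passed in a fit of the 2 control groups alone (adjusted p = 0.0286). The lipoxygenase gene Alox12b, whose product takes the first oxidation step on acylceramide linoleate, stood at 11.85, 11.60 and 11.62 in control forestomachs and 12.49, 12.25 and 12.38 in esophagi of animals 214, 216 and 217. Every forestomach value was lower, yet the log2 difference of -0.68 (SE 0.25) did not pass the test in the fit of all arrays (adjusted p = 0.132). With the animal as a random replicate block it did (adjusted p = 0.0309), as it did with a fixed block (0.00971). Aloxe3, which encodes the partner that converts the product of Alox12b, had a log2 difference of -0.03 with a 95% interval from -0.77 to 0.70 (adjusted p = 0.964). Its values were 10.70 to 10.77 in control forestomach and 10.74 to 10.84 in control esophagus. Their SDs were 0.04 and 0.06, against 0.80 in masses and 0.45 in flox/flox esophagus, which share the variance behind this interval. In the fit of the 2 control groups alone the adjusted p of Aloxe3 was 0.781. In all, 5 members were higher in control forestomach without overlap between the groups, against 18% of all genes, and 3 were lower without overlap, against 19.3%.

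**Figure D2:**
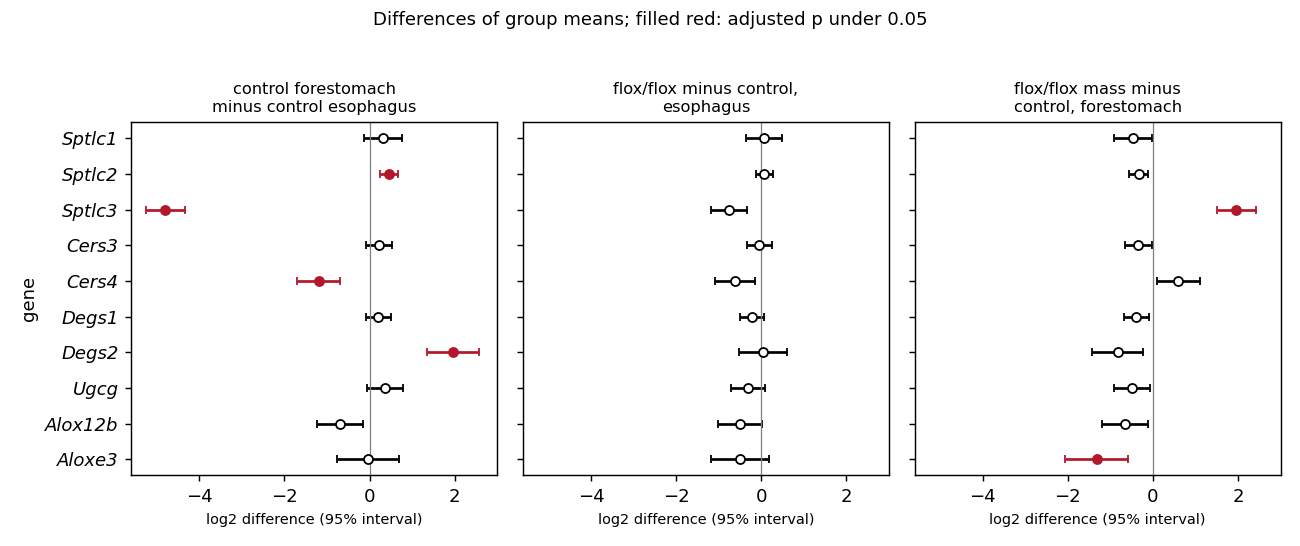
Log2 difference (x axis) with its 95% interval from limma for the 10 genes (y axis), in panels for the 2 normal tissues (forestomach minus esophagus), for the genotype comparison in esophagus and for masses relative to control forestomach. Filled points passed an adjusted p under 0.05. Sptlc3 reached -4.80 in the comparison of normal tissues and 1.96 in the masses, and no member passed in esophagus.

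In the forestomach masses Sptlc3 rose 3.88-fold relative to control forestomach, whose signal lay below the array medians, and Aloxe3 fell 2.50-fold. The other 8 members did not pass the test, 7 of them with a log2 difference below 0. Of the 10 members 1 was called higher, against 2.31% of all genes tested, and 1 lower, against 8.4%. The comparison asks what differs in masses of flox/flox forestomach, where Ctnnd1 signal was lower but still present, and because the samples are bulk RNA, fewer cells of a type and less RNA per cell cannot be told apart.

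Sptlc3 had log2 intensities of 7.85, 7.91 and 7.77 in masses 412, 426 and 510, against 5.99, 5.70 and 5.97 in control forestomachs 214, 216 and 217. The 3 masses lay close together and well above every control forestomach, and the log2 difference was 1.96 (SE 0.21, adjusted p = 0.000628). By p-value the gene ranked 21 of 15875. The call held in all 25 settings run for this comparison, fits without 1 array included, in which the log2 difference lay between 1.52 and 2.04. The masses stayed below every esophagus, flox/flox or control, where the lowest value was 9.43. The group means were 9.93 in flox/flox and 10.69 in control esophagus, and 7.84 in masses and 5.89 in control forestomach. Control esophagus was thus highest, then flox/flox esophagus, then the masses and last control forestomach, and no array of a group overlapped the next group in that order.

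Sptlc1 and Sptlc2 were lower in masses 412 and 426 than in control forestomach. Sptlc2 had log2 intensities of 10.63, 10.80 and 10.96 in masses 412, 426 and 510, against 11.10 to 11.16 in control forestomach, a log2 difference of -0.34 with an adjusted p of 0.0510. The groups did not overlap, so the gene missed the threshold with every mass below every control. It passed with a stricter filter on low values (adjusted p = 0.0268), after median centring (0.0336), with an offset on low values (0.0307) and with a trended and robust variance (0.0384). Sptlc1 had 10.003, 9.997 and 10.87 in the same masses, against 10.66 to 10.83 in control forestomach, with a log2 difference of -0.48 (SE 0.20, adjusted p = 0.170). For this subunit mass 510 was above all controls, and the other 2 masses were below them.

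Cers3 had log2 intensities of 11.52, 11.10 and 11.79 in masses 412, 426 and 510, against 11.77 to 11.86 in control forestomach (log2 difference -0.34, SE 0.14, adjusted p = 0.165). Cers4 moved the other way, with 6.69, 7.70 and 6.84 in the masses, against 6.34 to 6.55 in control forestomach (log2 difference 0.60, SE 0.23, adjusted p = 0.132). Much of the Cers4 difference came from mass 426, the one with glandular stomach markers, and without it the log2 difference was 0.29. Cers3 was lowest in that same mass, and its log2 difference without it was -0.16. Whether the glandular tissue took part in these values was not tested.

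Degs1 had log2 intensities of 11.03, 11.16 and 11.59 in masses 412, 426 and 510, against 11.60 to 11.68 in control forestomach, a log2 difference of -0.39 (SE 0.14, adjusted p = 0.0909). For Degs2 the masses had 8.90, 9.24 and 9.73, against 9.92 to 10.24 in control forestomach, a log2 difference of -0.83 (SE 0.28, adjusted p = 0.0802). Both desaturase genes were thus lower in every mass than in every control, and missed the threshold. For Degs1 the groups nearly met, with 11.5904 in mass 510 and 11.5964 in control forestomach 216. The group means of Degs2 were 9.29 in masses and 10.11 in control forestomach, and 8.19 in flox/flox and 8.15 in control esophagus, so that forestomach of both kinds was above esophagus, whose 2 groups did not differ beyond their spread.

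Ugcg had log2 intensities of 10.88, 10.17 and 10.997 in masses 412, 426 and 510, against 11.10 to 11.22 in control forestomach, a log2 difference of -0.48 (SE 0.19, adjusted p = 0.147) that was -0.22 without mass 426. Aloxe3 had 8.61, 9.43 and 10.21 in the masses, against 10.70 to 10.77 in control forestomach. Its masses spanned far more than the controls, with means of 9.42 ± 0.80 in masses and 10.74 ± 0.04 in control forestomach (SD, n = 3 each), and the log2 difference was -1.32 (SE 0.34, adjusted p = 0.0282). The Aloxe3 call was lost when any 1 control forestomach was left out, with an adjusted p between 0.0791 and 0.0911, when mass 412 (0.0719) or mass 426 (0.0512) was, and in a fit of the forestomach arrays alone (0.0925). Alox12b had 10.50, 11.10 and 11.48 in the masses, against 11.60 to 11.85 in control forestomach, a log2 difference of -0.66 (SE 0.25, adjusted p = 0.118) that was -0.40 without mass 412. Mass 412 was lowest and mass 510 highest for both lipoxygenase genes, and every mass was below every control. Across members, 6 were lower in masses without overlap between the groups, against 17.5% of all genes, and 2 were higher without overlap, against 10.3%.

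**Figure D3:**
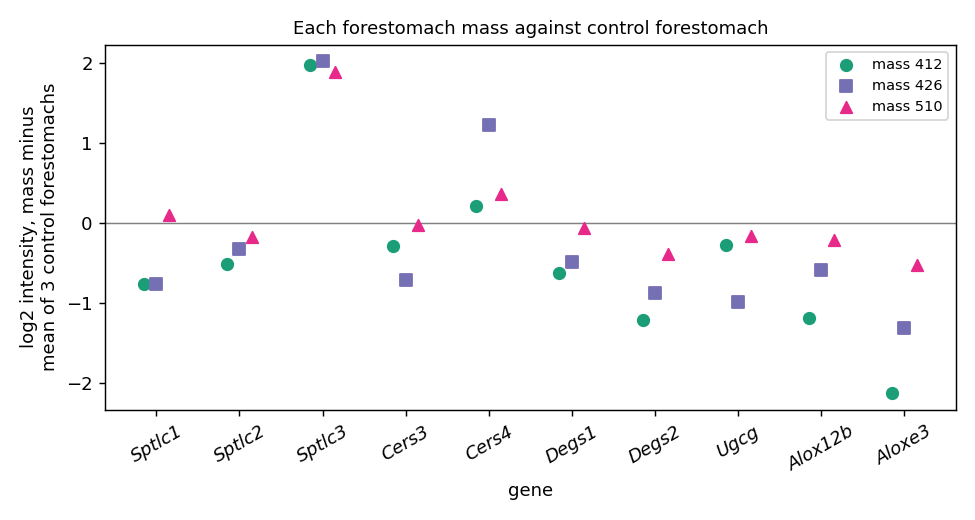
Log2 intensity of each mass minus the mean of the 3 control forestomachs (y axis) for the 10 genes (x axis), with a symbol for each mass. The symbols lie together for Sptlc3, between 1.89 and 2.02, and apart for Aloxe3, between -2.13 and -0.53, where mass 510 is nearest to 0.

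The plot of single masses shows how much the count of calls turned on mass 510. Relative to the mean of control forestomach its log2 differences were -0.06 for Degs1, -0.02 for Cers3, 0.10 for Sptlc1 and -0.17 for Ugcg. Without mass 510, 7 members were called lower, against 9.7% of 15756 genes tested, and 1 higher, against 4.51%. The members called lower were then Sptlc1 (log2 difference -0.76), Sptlc2 (-0.42), Cers3 (-0.50), Degs1 (-0.56), Degs2 (-1.05), Alox12b (-0.89) and Aloxe3 (-1.72), with adjusted p-values between 0.00317 and 0.0355. Without mass 412, only Sptlc3 was called, against 1.37% of genes higher and 6.15% lower, and without mass 426 again only Sptlc3, against 3.55% higher and 8.08% lower.

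Mass 510 also had the least signal of fibroblast and endothelial markers among the masses. The 7 fibroblast markers averaged a log2 intensity of 8.98, 9.31 and 7.42 in masses 412, 426 and 510, against 6.74 to 7.69 in control forestomach. Endothelial markers averaged 6.30 to 7.55 in masses and 5.28 to 6.09 in control forestomach, and leukocyte markers 6.80 to 7.35 in masses and 6.25 to 6.56 in control forestomach. The list of markers of epidermis and sebaceous gland averaged 6.43 to 7.18 in masses and 7.10 to 7.25 in control forestomach. Its summed intensity was 7007, 25624 and 24986 in masses 412, 426 and 510, against 27915 to 28298 in control forestomach. Adipocyte markers summed to 376 to 592 in masses and 1015 to 1126 in control forestomach, led by Fabp4 in both. The part of these other cell types in the members' lower values was not tested, and the squamous markers averaged 12.13 to 12.46 in masses and 12.05 to 12.17 in control forestomach.

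Over the members the median log2 difference in masses was -0.43, against 0.01 over all genes tested, and 8 of 10 members were below 0, against 49.0% of all genes. All 10 had an unadjusted p under 0.05, as had 3942 of the 15875 genes.

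In esophagus none of the 10 members passed the test between flox/flox and control epithelium, where limma called 0.0126% of all genes in either direction, 2 in number. At an unadjusted p under 0.05 there were 2 members, Sptlc3 and Cers4, and 1108 of 15875 genes. Sptlc3 had log2 intensities of 9.43, 10.34, 10.29 and 9.67 in flox/flox esophagi 193, 307, 313 and 335, against 10.67 to 10.71 in control esophagus. All 4 flox/flox values were lower, by a log2 difference of -0.75 (SE 0.20, 95% interval -1.18 to -0.33, adjusted p = 0.452). Cers4 had 6.96, 7.44, 6.74 and 7.09 in the same flox/flox esophagi, against 7.62 to 7.74 in control esophagus, again without overlap (log2 difference -0.62, SE 0.22, adjusted p = 0.587).

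Both lipoxygenase genes had flox/flox values that fell into a lower and a higher pair. Alox12b had log2 intensities of 11.43, 12.24, 12.16 and 11.67 in flox/flox esophagi 193, 307, 313 and 335, against 12.25 to 12.49 in control esophagus (log2 difference -0.50, 95% interval -1.005 to 0.009, adjusted p = 0.721). Aloxe3 had 9.85, 10.74, 10.60 and 9.93, against 10.74 to 10.84 in control esophagus (log2 difference -0.49, 95% interval -1.18 to 0.19, adjusted p = 0.856). Animals 193 and 335 gave the lower pair for both genes and also for Sptlc3 and Ugcg. Those same 2 esophagi had the highest leukocyte marker means among esophagi, 7.48 and 7.45, against 5.70 to 7.05 on the other esophageal arrays. What part those cells had in the lower values was not tested.

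The remaining members differed less in esophagus. Ugcg had 10.20 to 10.69 in flox/flox and 10.74 to 10.89 in control esophagus, and Degs1 had 11.13 to 11.33 in flox/flox and 11.35 to 11.61 in control esophagus, each without overlap and with log2 differences of -0.31 and -0.21 (adjusted p = 0.814 and 0.818). The 95% intervals of the log2 difference were -0.35 to 0.24 for Cers3, -0.53 to 0.59 for Degs2, -0.35 to 0.48 for Sptlc1 and -0.13 to 0.27 for Sptlc2. Thus 5 of 10 members had all flox/flox values below all controls, against 6.1% of all genes, and none passed the test. For Degs1 and Alox12b the groups nearly met. Flox/flox esophagus 307 had 11.3316 for Degs1, against 11.3453 in control esophagus 214, and 12.2415 for Alox12b, against 12.2514 in control esophagus 216. The median log2 difference over the members was -0.26, against 0.01 over all genes, and 7 of 10 were below 0, against 48.4%.

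The difference of Sptlc3 from control was not alike in forestomach masses and in esophagus, a comparison that sets flox/flox samples with a mass against flox/flox samples that are not labelled as masses. Its log2 difference was 1.96 in masses relative to control forestomach and -0.75 in flox/flox relative to control esophagus, and the first minus the second was 2.71 (SE 0.29, 95% interval 2.09 to 3.33, adjusted p = 0.00284). Sptlc3 was the one member called, higher in the masses' comparison, against 0.0819% of all genes called in that direction. By p-value it ranked 3 of 15875. For Cers4 this quantity was 1.22 (SE 0.32, adjusted p = 0.170), and for the other 8 members it lay between -0.86 and -0.16 with adjusted p-values of 0.296 or above. These 8 include Aloxe3, for which it was -0.83 with a 95% interval from -1.83 to 0.18, so its call in masses and not in esophagus is not shown to be a difference between tissues.

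Genes of the surrounding pathway were read from 6 lists, which hold 82 tested genes that are not members. The lists too were chosen with earlier results of these data known, so their counts beside the share of all genes are descriptions. In the list of other genes of de novo ceramide synthesis, 1 of 9 tested genes rose in masses, against 2.31% of all genes, and 3 fell, against 8.4%, with a median log2 difference of -0.16. Sptssa, a small subunit that stimulates serine palmitoyltransferase, had log2 intensities of 10.59, 8.57 and 9.56 in masses 412, 426 and 510, against 7.45 to 7.57 in control forestomach (log2 difference 2.04, SE 0.38, adjusted p = 0.00668). In a fit of the forestomach arrays alone Sptssa lost this call (adjusted p = 0.0573). Its direction between the normal tissues was like that of Sptlc3, with a log2 difference of -1.47 in control forestomach relative to control esophagus (adjusted p = 0.0383), a call lost when any 1 of the 6 control arrays was left out and without flox/flox esophagus 313 or 335, with an adjusted p of up to 0.128. The genes that fell in masses were Ormdl1, of a family that inhibits serine palmitoyltransferase (log2 difference -0.72, adjusted p = 0.00561), the ceramide synthase gene Cers5 (-0.72, 0.00251) and Kdsr, which encodes the reductase of the second step (-0.55, 0.0376). The Kdsr call was lost without mass 412, without any 1 of the 3 control forestomachs, and without control esophagus 216 or flox/flox esophagus 307 or 313, with an adjusted p of up to 0.133 over all settings. It was also lost in a fit of the forestomach arrays alone, after quantile normalization and with array weights. Leaving out the esophagus arrays with skeletal muscle signal lost the Kdsr call too. Ormdl1 was higher in control forestomach than in control esophagus, by 0.64 on the log2 scale (adjusted p = 0.0104). That call was lost without the esophagus arrays with skeletal muscle signal (adjusted p = 0.0525), while the difference lay between 0.52 and 0.74 over all settings.

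Genes that make ultra-long acyl chains and acylceramides were mostly lower in masses, with 8 of 10 tested genes called lower, against 8.4% of all genes, 1 higher, against 2.31%, and a median log2 difference of -0.70. The count called lower was 3 without mass 412 (6.15% of all genes), 4 without mass 426 (8.08%) and 8 without mass 510 (9.7%). The gene that rose was Elovl7, a fatty acid elongase, with log2 intensities of 10.63, 10.74 and 10.92 in masses 412, 426 and 510, against 9.50 to 9.59 in control forestomach (log2 difference 1.23, SE 0.11, adjusted p = 0.000263). Like Sptlc3, it was lower in control forestomach than in control esophagus, by a log2 difference of -1.91 (adjusted p = 1.34e-06). Elovl4, the elongase of the longest acyl chains, had a log2 difference of -0.72 in masses (adjusted p = 0.0178) and of 0.73 in control forestomach relative to control esophagus (adjusted p = 0.0202). Both Elovl4 calls turned on single arrays, the first being lost without mass 412 or any 1 control forestomach and the second without any 1 of the 6 control arrays, with adjusted p-values of up to 0.0931 and 0.108. The first was also lost in a fit of the forestomach arrays alone, and the second without the esophagus arrays with skeletal muscle signal. Cyp4f39, the mouse counterpart of the human hydroxylase CYP4F22 that acts on those chains, fell by 0.80 on the log2 scale in masses (adjusted p = 0.0120). Its call was lost in a fit of the forestomach arrays alone (adjusted p = 0.0613). Hsd17b12, a reductase of fatty acid elongation, fell by 0.67 (adjusted p = 0.00928). Between the normal tissues 5 of these 10 genes were called higher in control forestomach, against 3.51% of all genes, and 1 lower, against 3.16%. Fa2h, which hydroxylates the acyl chain of ceramides, had a log2 difference of 5.57 (SE 0.68, adjusted p = 0.000545), with a control esophagus mean of 5.06 that lay near the filter. Without the esophagus arrays with skeletal muscle signal, 1 of the 10 was called higher, against 1.78% of all genes, and 1 lower, against 1.37%.

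**Figure D4:**
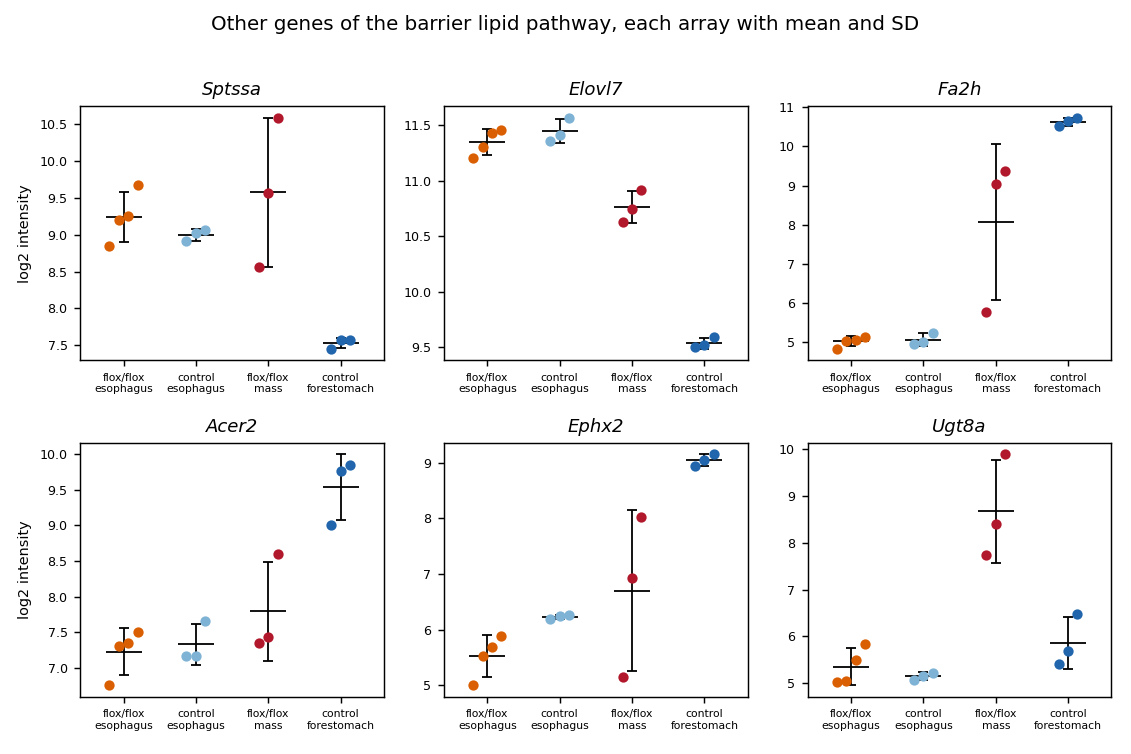
Log2 intensity (y axis, a separate range for each panel) of 6 pathway genes that are not members in the 4 groups, drawn as points for arrays with bars for the group mean and SD. The genes Sptssa and Elovl7 were higher in masses than in control forestomach, and Acer2 and Ephx2 were lower in masses.

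The genes of ceramide breakdown and sphingosine 1-phosphate metabolism had 11 of 17 tested genes called lower in masses, against 8.4% of all genes, and 2 higher, against 2.31%, with a median log2 difference of -0.74. The count called lower was 8 without mass 412 (6.15% of all genes), 8 without mass 426 (8.08%) and 11 without mass 510 (9.7%). Acer2, a Golgi ceramidase, fell by 1.74 on the log2 scale (SE 0.33, adjusted p = 0.00790), and its log2 difference in control forestomach relative to control esophagus was 2.21 (adjusted p = 0.00212). Sgpl1, the lyase that ends the pathway, fell by 1.53 in masses (adjusted p = 0.00561), the kinase gene Sphk2 by 0.70 (0.00153) and the receptor gene S1pr5 by 1.22 (0.00239). The mass calls of Acer2 and Sgpl1 were lost in a fit of the forestomach arrays alone (adjusted p = 0.0548 and 0.0568). Between the normal tissues 4 genes of the list were called higher in control forestomach, against 3.51% of all genes, and 1 lower, against 3.16%. Without the esophagus arrays with skeletal muscle signal 2 were called higher (1.78% of all genes) and 0 lower (1.37%). The calls in the fit of all arrays include the phosphatase gene Sgpp1 (log2 difference 1.36, adjusted p = 0.000100) and Aldh3a2, which oxidises fatty aldehydes (1.56, 0.0121), while the acid ceramidase gene Asah1 was the one that was lower (-1.76, 0.00859). The Aldh3a2 call was lost without control forestomach 214 and without the esophagus arrays with skeletal muscle signal, with an adjusted p of up to 0.0676.

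Among genes that move and process glucosylceramide and sphingomyelin, 2 of 19 tested genes rose in masses, against 2.31% of all genes, and 5 fell, against 8.4%, with a median log2 difference of -0.29. Without mass 412 1 rose, against 1.37%, and 1 fell, against 6.15%. Ugt8a, which joins galactose to ceramide, had log2 intensities of 9.89, 8.39 and 7.75 in masses 412, 426 and 510, against 5.41 to 6.49 in control forestomach (log2 difference 2.82, adjusted p = 0.00360), with control levels that may be background. The sphingomyelin synthase gene Sgms2 rose by 1.28 (adjusted p = 0.0335), while Plekha8, a glucosylceramide transfer protein, fell by 0.82 (0.00293) and the glucosylceramidase gene Gba2 by 1.10 (0.0349). The calls of Sgms2 and Gba2 were lost without mass 412, without mass 426 and without any 1 control forestomach, and that of Gba2 also without control esophagus 217, with adjusted p-values of up to 0.131 and 0.120. Both were also lost in a fit of the forestomach arrays alone and without the esophagus arrays with skeletal muscle signal. Between the normal tissues Plekha8 was higher in control forestomach (log2 difference 0.77, adjusted p = 0.00366) and Sgms1 lower (-0.55, 0.00742), the only calls among the 19, against 3.51% of all genes called higher and 3.16% lower.

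In the list of other lipoxygenases and genes that handle their products, 2 of 12 tested genes fell in masses, against 8.4% of all genes, and none rose, against 2.31%, with a median log2 difference of -0.26. They were the epoxide hydrolase genes Ephx1 (log2 difference -1.55, adjusted p = 0.000736) and Ephx2 (-2.34, SE 0.52, adjusted p = 0.0151). Without mass 510 the count that fell was 5, against 9.7% of all genes. The Ephx2 call was lost without control forestomach 214 or 216 and in a fit of the forestomach arrays alone, with an adjusted p of up to 0.0912. Ephx2 and the lipoxygenase gene Alox8 were higher in control forestomach than in control esophagus, with log2 differences of 2.81 (adjusted p = 0.00684) and 0.87 (adjusted p = 0.00190). Aloxe3, Alox12b and Alox8 are consecutive protein-coding genes on chromosome 11 in RefSeq (GRCm38.p6). Of the 3 only Alox8 was called in the comparison of normal tissues in the fit of all arrays. Its log2 intensities were 5.91 to 6.10 in control forestomach and 5.06 to 5.14 in control esophagus, levels that may be background.

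The cornified envelope, to which the oxidised ceramides are bound, had 1 of 15 tested genes called higher in masses, against 2.31% of all genes, and 4 lower, against 8.4%, with a median log2 difference of -0.64. Without mass 510 the counts were 0 higher (4.51% of all genes) and 7 lower (9.7%). Evpl (log2 difference -0.98, adjusted p = 0.00633) and Ppl (-0.57, 0.0148) encode plakins of the envelope's scaffold, and Lor (-1.05, 0.0390) encodes loricrin, one of its main proteins. The gene that rose was Tgm5, a crosslinking transglutaminase (log2 difference 0.99, adjusted p = 0.0322). Its call was lost without mass 412, mass 510 or any 1 control forestomach (adjusted p up to 0.148). That of Lor was lost without any 1 control forestomach and without control esophagus 216 or 217 or flox/flox esophagus 313 or 335 (up to 0.147), and that of Ppl without control forestomach 214 or 216 (up to 0.0601). The mass calls of Tgm5, Lor and Ppl were also lost in a fit of the forestomach arrays alone. Those of Tgm5 and Lor were lost without the esophagus arrays with skeletal muscle signal. Tgm5 also lost its call with array weights, and Lor after quantile normalization. Between the normal tissues 7 genes were called higher in control forestomach, against 3.51% of all genes, and 1 lower, against 3.16%. Without the esophagus arrays with skeletal muscle signal 4 were called higher (1.78% of all genes) and 0 lower (1.37%). Klk5 (log2 difference 3.97, adjusted p = 0.000611), a protease of shedding cells, its inhibitor gene Spink5 (0.92, 0.00581) and Casp14, a caspase of cornifying cells (1.54, 0.00616), were higher, and Tgm5 was lower (-1.30, 0.0108), a call lost without control forestomach 214 (adjusted p up to 0.0728).

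In esophagus no tested gene of the 6 lists was called between flox/flox and control. In the mass comparison minus the esophagus comparison 1 was, Elovl7, with a value of 1.32 (SE 0.14, adjusted p = 0.00284), a call that was lost without the esophagus arrays with skeletal muscle signal (adjusted p = 0.0743). Over all settings run Elovl7 stayed between 1.24 and 1.39 in this quantity. Its flox/flox esophagi stood at 11.20 to 11.46, against 11.36 to 11.56 in control esophagus. Over all 6 lists 41 calls were made for named genes, and 21 of them were lost under none of the settings run.

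Genes whose log2 intensity most followed that of a member over the 13 arrays are given as a description, since the arrays share the group differences above. For Sptlc3 they were F3, which encodes tissue factor (Pearson r 0.975), Tmod3 (0.974) and Sema3d (0.965). Aloxe3 was followed most by Hsd17b2 (0.987), Cobl (0.986) and Gpld1 (0.982), and Alox12b by Wnt7b (0.969), Osbpl2 (0.967) and Eps15 (0.958). For Degs2 they were Tpp1 (0.972), Lce6a (0.963) and Irx1 (0.954), and for Degs1 Inpp5b (0.958), Nipal2 (0.947) and Chst14 (0.945). Ugcg was followed by Sdr9c7 (0.957), which encodes a dehydrogenase of the acylceramide route, Nploc4 (0.949) and Phlda2 (0.947). The leading genes were Thsd1 for Sptlc2 (0.973), Ints11 for Cers3 (0.950), Spryd7 for Sptlc1 (0.905) and Epb41l4b for Cers4 (0.875).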

How the data were processed

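Gene expression was measured on 13 Affymetrix arrays of mouse squamous epithelium. The values are intensities on a linear scale that the authors deposited, made with GCRMA per the submitters' processing notes, with the version not given in the sources used here. Array medians lay between 65.3 and 72.4. Precision is limited by how many arrays there are.

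Values below 1 were set to 1 and put on the log2 scale. Each gene was read by its single-gene probe set of highest mean, and genes entered the test at a log2 intensity above 5 on at least 3 arrays. Gene names came from the platform annotation. All 13 arrays entered a single limma model (version 3.58.1 under R 4.3.3) with a mean per group and moderated variances, and p-values received Benjamini-Hochberg adjustment over 15875 genes. The groups shared 1 variance per gene, though the median SD over genes was 0.248 in masses and 0.115 to 0.148 in the other groups. SEs and p-values of the mass comparison may thus be too small, and those between the normal tissues too large. With the forestomach arrays alone 458 genes were called in masses, against 1700 with all arrays. With the control arrays alone 2372 genes were called between the normal tissues, against 1059 with all arrays. The fit was tested on simulated data with the same spread in every group, so that test cannot show the effect of the larger spread in masses. The members and gene lists were chosen with earlier results of these data known.

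The labels' animal numbers pair control forestomach with control esophagus. Deviations from the group means correlated at 0.315 to 0.401 (Pearson r over genes) for the same animal, and at -0.425 to 0.129 for different animals. Of each list, up to 4 called genes per comparison by smallest adjusted p are named, with the 3 genes most correlated with a member. Alternatives covered the filter, scaling, offset, weights, blocks and left-out arrays.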

Additional observations from a re-analysis of the deposited data

Results flagged for a closer look

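The difference of Sptlc3 from control in forestomach masses minus that in esophagus was 2.71 on the log2 scale (adjusted p = 0.00284 by limma's interaction term), with 3 of 3 masses above every control forestomach and 4 of 4 flox/flox esophagi below every control esophagus. For Elovl7 the same quantity was 1.32 (adjusted p = 0.00284), with 3 of 3 masses above every control forestomach, while flox/flox esophagi (11.20 to 11.46) overlapped control esophagi (11.36 to 11.56). The Elovl7 call was lost without the esophagus arrays with skeletal muscle signal (adjusted p = 0.0743). Over all settings its value stayed between 1.24 and 1.39. Without those arrays 5 genes in all were called for this quantity, against 22 in the fit of all arrays. In both values genotype and mass formation cannot be told apart.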

How the results depend on the processing

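The members' values were recomputed under 26 settings, 13 of which left out 1 array. Of these comparisons with the fit of all arrays, 972 kept direction and side of the threshold, 17 moved past the threshold, 12 lost it and 9 turned sign. In masses against control forestomach the count of members called was 1 with the forestomach arrays alone, and between 1 and 8 when 1 array was left out. In that comparison it was 3 with a stricter filter, median centring, an offset, or a trended and robust variance, each adding Sptlc2, and 3 without the esophagus arrays with skeletal muscle signal, adding Degs2. For the mass comparison minus the esophagus comparison it was between 1 and 2 when 1 array was left out, 2 without mass 510, where Sptlc1 was added. With the animal as a random replicate block, 5 members were called between the normal tissues, Alox12b being added, while all genes called were 2670 of 15875, and the block changed no other member's call. A fit of the control arrays alone called 6 members, adding Alox12b and Ugcg, and 2372 genes. In esophagus the Degs2 log2 difference was -0.10 with array weights, -0.032 without the arrays with skeletal muscle signal, and -0.23 to 0.22 when 1 array was left out, and that of Sptlc1 was -0.020 to 0.13. In the mass comparison minus the esophagus comparison, leaving out 1 array gave -0.39 to 0.10 for Alox12b and -0.33 to 0.086 for Ugcg. Between the normal tissues the Aloxe3 log2 difference was 0.018 after quantile normalization. The number of all genes called ran from 0 to 7 in esophagus (2 in the fit of all arrays), 458 to 2239 in masses (1700), 5 to 373 for the difference (22) and 496 to 3802 between normal tissues (1059). The causes were not tested.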
